A study of Mus musculus with 25 samples.

Results

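Cadherins, claudins and their partners hold epithelial cells together and set how tight the sheet is. The 10 genes described here are *Cdh1*, *Ctnnb1*, *Epcam*, *Cldn2*, *Cldn3*, *Cldn4*, *Cldn7*, *Cldn15*, *Tjp1* and *Ocln*, taken by gene symbol from the 24089 genes of the table. They were chosen with earlier results of these data known. The study cut 5 segments from jejunal sections of 2 male C57BL/6 mice, 3 months old and kept on regular chow, by laser capture microdissection, and sequenced the polyadenylated RNA of each. The segments were the top of the follicle-associated epithelium (FAET), its bottom (FAEB), an adjacent villus bottom (VB), and the bottom (ILFB) and top (ILFT) of the isolated lymphoid follicle (ILF), the small lymphoid aggregate that this epithelium covers. There were 5 repeats of each segment. Mouse 1 gave the first 2 and mouse 2 the other 3, so the repeats of a mouse were not separate animals, and each library pooled tissue of at least 3 follicles. All 25 libraries came from animals given no treatment. P-values therefore measured the spread between libraries rather than between animals.

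E-cadherin, the product of *Cdh1*, joins neighbouring cells at the adherens junction, where its cytoplasmic tail binds β-catenin, the product of *Ctnnb1*. Claudins form the strands of the tight junction above it, with occludin (*Ocln*) in the same strands and ZO-1 (*Tjp1*) as the scaffold beneath them. Claudin-2 and claudin-15 form pores for cations in the gut, whereas claudin-4 is known as a sealing claudin, and Epcam, an epithelial surface protein along the lateral membrane, binds and stabilises claudin-7. Zeb1, Zeb2 and the Snail proteins repress *Cdh1* and other junction genes through E-boxes in their promoters.

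The promoters of *Epcam*, *Cldn7* and *Cldn4* are shown because they carry that E-box, and because *Zeb1* and *Zeb2* were measured in the same libraries. RefSeq promoter windows on GRCm38.p6 were found for 9 of the 10 genes, 12 windows in all, and the 250 bases before each start were searched for CAGGTG on both strands (CACCTG on the other). The motif occurred in 4 of these 12 windows, which belonged to 4 genes, and in 17.2% of the 32851 windows of all genes. Capitals mark the motif. The *Epcam* window lies before the annotated gene start (chr17:87635729-87635978, plus strand) and holds 2 matches.
Epcam: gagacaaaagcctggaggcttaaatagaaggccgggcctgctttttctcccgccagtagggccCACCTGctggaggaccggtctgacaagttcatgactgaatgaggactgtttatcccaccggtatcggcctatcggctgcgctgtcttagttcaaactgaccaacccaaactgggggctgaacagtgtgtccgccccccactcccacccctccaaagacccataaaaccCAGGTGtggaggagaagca
The *Cldn7* window belongs to a start within the gene (chr11:69965171-69965420, plus strand) and also holds 2 matches, whereas the window before the first *Cldn7* start held none.
Cldn7: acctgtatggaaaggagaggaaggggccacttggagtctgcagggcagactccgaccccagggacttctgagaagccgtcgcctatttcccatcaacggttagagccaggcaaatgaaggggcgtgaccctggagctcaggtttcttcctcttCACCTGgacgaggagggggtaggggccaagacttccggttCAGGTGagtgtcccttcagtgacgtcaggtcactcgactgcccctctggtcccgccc
The *Cldn4* window (chr5:134946935-134947184, minus strand) holds 1 match, 14 bases before the start.
Cldn4: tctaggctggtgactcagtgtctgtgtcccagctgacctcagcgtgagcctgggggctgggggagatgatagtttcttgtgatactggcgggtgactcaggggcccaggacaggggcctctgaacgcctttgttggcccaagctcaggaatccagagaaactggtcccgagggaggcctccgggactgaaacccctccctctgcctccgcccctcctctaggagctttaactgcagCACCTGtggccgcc
The fourth gene with the motif was *Ocln*, and 2.06% of all windows held 2 or more matches. The promoter of *Cdh1* was not analysed here.

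Depth ranged from 21529 to 213736 UMIs (unique molecular identifiers, 1 for each captured mRNA molecule) per library, with 1507 to 14002 genes detected. Levels are given below as UMIs per 10,000 protein-coding UMIs. Mitochondrial genes and the 2 genes that reached 5% of a library were left out of this total. As UMIs were counted at the 3′ end and not divided by gene length, levels were compared between libraries and not between genes. Some libraries went against their label: by the summed share of 18 epithelial genes, none of them a junction gene, and of 18 immune genes, the immune list was the larger in FAET repeat 1 and VB repeat 5, and the epithelial list was the larger in ILFB repeat 5 and in ILFT repeats 1, 3 and 4. In these 6 libraries the epithelial list held 19.4 and 4.46 UMIs per 10,000 UMIs of the library in the first 2 and 64.6 to 127 in the other 4. The immune list held 111 and 136 in the first 2, and 10.2 to 20.2 in ILFB repeat 5 and ILFT repeats 1 and 4. In ILFT repeat 3 it held 88.3 beside 127 of the epithelial list, so this library carried markers of both compartments. Results are given for all 25 libraries and for the 19 others. FAET repeats 2 and 3 were the shallowest libraries, with 21529 and 23314 UMIs, and a gene with no UMI there may have had up to 4.74 and 2.56 UMIs per 10,000 (the level of 3 UMIs). Intervals and floors cover counting error only.

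In all 25 libraries no junction gene passed the test between the epithelial segments and the ILF, although the mean of *Cdh1* and of *Epcam* was higher in the epithelium. *Epcam* (chr17:87635979-87651129) had 5, 14, 3, 131 and 41 UMIs in FAET repeats 1 to 5, 36, 96, 54, 32 and 31 in FAEB, and 77, 14, 7, 77 and 2 in VB, against 4, 10, 17, 0 and 46 in ILFB and 93, 0, 19, 39 and 1 in ILFT. As fractions, it averaged 13.4 ± 10.7 per 10,000 in the epithelium (SD, n = 15) and 5.72 ± 7.71 in the ILF (SD, n = 10), and the ranges overlapped. The high ILF values were those of the libraries that went against their label: ILFB repeat 5 and ILFT repeats 1 and 4 had 18.9, 16.8 and 14.4 per 10,000.

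*Cdh1* (chr8:106603351-106670246) showed the same split. It averaged 8.10 ± 10.1 per 10,000 in the epithelium (SD, n = 15) and 1.77 ± 2.41 in the ILF (SD, n = 10). The ILF libraries had 2, 9, 8, 2 and 7 UMIs (ILFB) and 40, 0, 1, 12 and 1 UMIs (ILFT), so that 2 of the ILFT libraries with epithelial markers held most of them. In the third of these, ILFT repeat 3, only 1 *Cdh1* UMI was found beside 75 UMIs of *Cldn3* and 46 of *Cldn7*.

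The claudins overlapped more widely. *Cldn7* (chr11:69964779-69967885) averaged 8.06 ± 6.40 per 10,000 in the epithelium and 4.65 ± 5.23 in the ILF (SD, n = 15 and n = 10). *Cldn3* (chr5:134986214-134987472) averaged 3.84 ± 3.60 and 3.92 ± 5.26, and *Cldn15* (chr5:136966616-136975858) averaged 3.97 ± 2.65 and 3.08 ± 5.27, epithelium before ILF. *Ctnnb1* (chr9:120929216-120960507), which cells outside epithelia also use, averaged 2.23 ± 1.87 in the epithelium and 1.61 ± 1.24 in the ILF, and had UMIs in 12 of 15 epithelial and 8 of 10 ILF libraries.

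Of the 10 genes, 8 had at least 3 UMIs in at least 3 libraries and were among the 9956 genes tested by edgeR's quasi-likelihood test. With mouse as a covariate, 0 of the 8 had a Benjamini-Hochberg adjusted p under 0.05 between epithelium and ILF, where 3.03% of all tested genes did. DESeq2 and limma-voom also called 0 of the 8, but of all 9956 genes they called only 0% and 0.331%. At an unadjusted p under 0.05 edgeR had 2 of the 8, *Cdh1* and *Epcam*. The log2 fold change (epithelium over ILF) was 1.80 ± 0.74 for *Cdh1* (SE, edgeR adjusted p = 0.147) and 1.41 ± 0.68 for *Epcam* (SE, edgeR adjusted p = 0.230). It was 0.78 ± 0.68 for *Cldn7*, 0.61 ± 0.71 for *Cldn15*, 0.31 ± 0.75 for *Ctnnb1* and 0.02 ± 0.68 for *Cldn3*, with edgeR adjusted p from 0.575 to 1. The sign for *Cldn3* flipped under the other scalings. Over the 6524 tested genes with UMIs in every segment the median was −0.29, and over these 6 junction genes it was 0.70. An exact permutation of libraries within mice, adjusted over 8612 genes, called 0 junction genes, with an unadjusted exact p of 0.0330 for *Cdh1* and 0.0647 for *Epcam*. It called 0 of all 8612 genes, with 985 of them at an unadjusted p under 0.05.

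**Figure D1:**
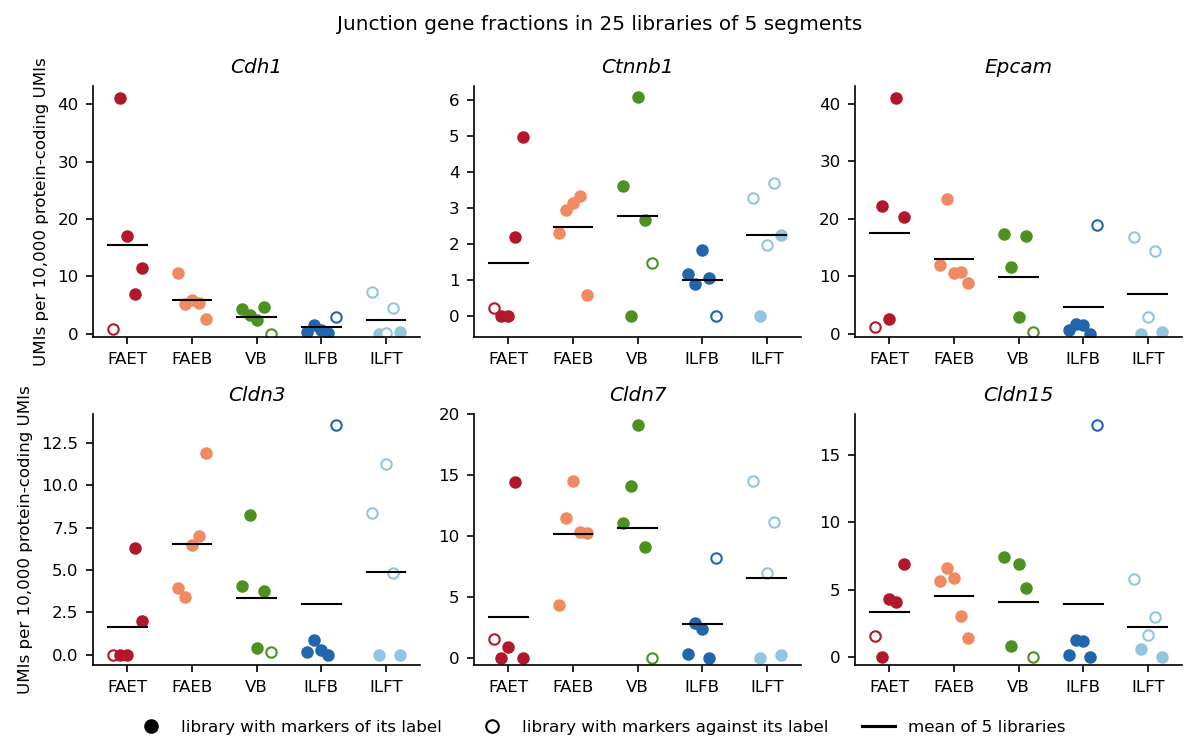
Fractions of the 6 junction genes with UMIs in every segment. Each point is a library (x axis: segment, repeats 1 to 5 from left to right within it, y axis: UMIs per 10,000 protein-coding UMIs), open points are the 6 libraries whose markers went against the label, and the line is the mean of 5 libraries. The open ILF points lie among the epithelial ones for *Epcam* and *Cldn7*, and *Cdh1* reaches its highest values in FAET, up to 41.1.

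In the 19 libraries that kept to their label, 5 junction genes were higher in the epithelium. *Epcam* averaged 15.4 ± 10.2 per 10,000 in 13 epithelial libraries and 0.703 ± 0.777 in 6 ILF libraries (SD). It ran from 2.56 to 41.0 in the epithelium and from 0 to 1.75 in the ILF. *Cdh1* ran from 2.43 to 41.1 in the epithelium and from 0 to 1.58 in the ILF. *Cldn7*, *Cldn3* and *Cldn15* overlapped only through epithelial libraries with few or no UMIs, of which FAET had most.

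The log2 fold changes (epithelium over ILF) in these 19 libraries were 4.98 ± 1.03 for *Epcam*, 4.04 ± 1.04 for *Cdh1*, 3.81 ± 1.02 for *Cldn7* and 3.39 ± 1.06 for *Cldn15* (SE), with edgeR adjusted p of 0.000134, 0.00285, 0.00402 and 0.0156. *Cldn3*, which had 0 UMIs in both remaining ILFT libraries and therefore has no stable fitted fold, averaged 4.42 ± 3.51 per 10,000 in the epithelium and 0.220 ± 0.341 in the ILF (SD, n = 13 and n = 6, edgeR adjusted p = 0.00285). These 5 of 7 genes tested stood beside 17.3% of all 8738 genes tested in either direction and 4.31% called higher in the epithelium. *Ctnnb1* was not called, at 0.85 ± 0.87 (SE, edgeR adjusted p = 0.585). The exact permutation test called 2 of the 8, *Epcam* and *Cldn15* (adjusted p = 0.0433 and 0.0400), where it called 8.02% of all genes. With any difference between the 5 segments tested, edgeR called 0 of 8 junction genes in 25 libraries (1.79% of all genes) and 4 in 19 libraries (18.2% of all genes), *Cdh1*, *Epcam*, *Cldn3* and *Cldn7*. The 19 libraries were kept by their epithelial and immune markers, so these calls are not independent of the compartment. Fewer epithelial cells in a library and less junction RNA per cell cannot be told apart in such pooled tissue.

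**Figure D2:**
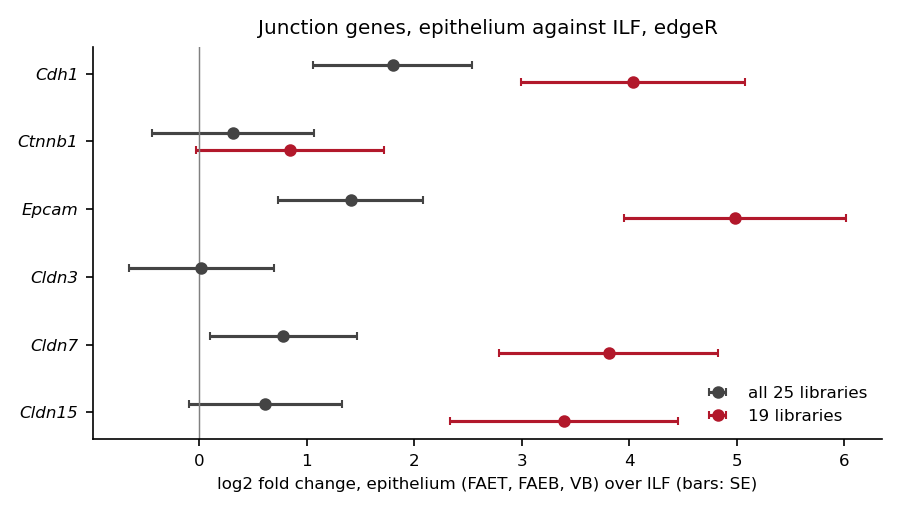
Log2 fold change of junction genes between the epithelium (FAET, FAEB and VB) and the ILF from edgeR, in all 25 libraries (grey) and in the 19 whose markers fit the label (red). Bars are the SE, and *Cldn3* is drawn for 25 libraries only, since 1 segment was at 0 in the 19. The red points lie right of the grey ones, 4.98 against 1.41 for *Epcam*.

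The contrast was also fitted in each mouse. The *Cdh1* log2 fold change (epithelium over ILF) was 2.07 in mouse 2 and 1.54 in mouse 1, and the difference of 0.53 ± 1.44 (SE) had an edgeR adjusted p of 1.00. For *Epcam* it was 1.31 in mouse 2 and 1.59 in mouse 1, for *Cldn7* 1.07 and 0.16, and for *Cldn15* 0.71 and 0.80. For *Ctnnb1* it was 0.52 in mouse 2 and −0.56 in mouse 1, and for *Cldn3* −0.21 and −1.07. Of the 6 junction genes with UMIs in every segment this edgeR interaction test called 0, with 0 at an unadjusted p under 0.05, and it called 2 of all 9956 genes. It was run with edgeR only.

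*Cdh1* had 4, 26, 20, 22 and 23 UMIs in FAET repeats 1 to 5, 32, 21, 30, 16 and 9 in FAEB, and 19, 4, 6, 21 and 0 in VB. Per 10,000 this was 0.896, 41.1, 17.1, 6.89 and 11.4 in FAET, against 10.6, 5.13, 5.89, 5.34 and 2.55 in FAEB and 4.28, 3.31, 2.43, 4.66 and 0 in VB. In FAET, 4 of 5 libraries lay above every VB library, and FAET repeat 1 and VB repeat 5, the lowest in their segments, were both libraries with immune markers.

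The means were 15.5 ± 15.5 in FAET, 5.89 ± 2.91 in FAEB and 2.94 ± 1.86 in VB (SD, n = 5 each), a difference of FAET from VB that was within the spread of FAET. edgeR called 0 of 8 junction genes between FAET and VB (0.0100% of all genes), between FAET and FAEB (0% of all genes, 1424 of 9956 at an unadjusted p under 0.05) and between FAEB and VB (0.0201% of all genes). DESeq2 and limma-voom called 0 of the 8 in each as well, where DESeq2 called 2, 4 and 2 of all 9956 genes in the same order and limma-voom 0 in each. At an unadjusted p under 0.05 edgeR had only *Tjp1*, between FAET and VB. The *Cdh1* log2 fold change was 1.55 ± 1.09 for FAET over VB (SE, edgeR adjusted p = 0.558), 0.68 ± 1.07 for FAET over FAEB (adjusted p = 0.856) and 0.86 ± 1.07 for FAEB over VB (adjusted p = 0.997). Without VB repeat 4 it was 2.34 for FAET over VB and 1.66 for FAEB over VB. Limma-voom gave 0.14 for FAET over FAEB and 1.79 for FAEB over VB, and total UMIs as the scaling gave 2.18 for FAET over VB. *Cdh1* was called in none of these.

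The exact permutation test within mice, which cannot go below p = 0.0167 for 5 against 5 libraries, gave an unadjusted p of 0.0833 for *Cdh1* between FAET and VB, 0.2 between FAET and FAEB and 0.0667 between FAEB and VB. Over the 3 epithelial segments the Kruskal-Wallis statistic had an exact p of 0.0663. None of these comparisons called any of the 8612 genes after adjustment, with 80, 191, 103 and 401 at an unadjusted p under 0.05, and *Cdh1* had an adjusted exact p of 0.957 over the 3 segments. Without the libraries with immune markers, *Cdh1* averaged 19.1 ± 15.2 in 4 FAET libraries, 5.89 ± 2.91 in 5 FAEB libraries and 3.67 ± 1.00 in 4 VB libraries (SD), and all 4 FAET libraries lay above all 4 VB libraries. The exact p over the 3 segments was then 0.00643 and its adjusted value 0.603. For FAET against VB it was 0.0333, which is the smallest p that this design allows, and for FAET against FAEB it was 0.0167, again the smallest. Neither comparison called any of the 8612 genes after adjustment, nor did the test over the 3 segments. At an unadjusted exact p under 0.05 they had 139, 213 and 531 genes in that order. The highest value, 41.1, came from FAET repeat 2, the shallowest library. Other marker lists overlapped between the segments and are given per 10,000 UMIs of the whole library, a larger total than that of the fractions. The 10 villus tip enterocyte genes, all in the table, summed to 6.52 to 252 in FAET (median 137), 10.1 to 349 in FAEB (median 43.3) and 1.64 to 143 in VB (median 48.0). The 11 M cell genes, all in the table and with *Gp2* at 4 UMIs over all libraries, summed to 6.01 to 39.3 in FAET (median 11.6), 2.40 to 17.0 in FAEB (median 13.3) and 1.80 to 9.82 in VB (median 2.49). Their part in the *Cdh1* levels was not tested.

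*Cldn7* UMIs were few in FAET outside a single library. There were 7, 0, 1, 46 and 0 *Cldn7* UMIs in FAET repeats 1 to 5, against 13, 47, 74, 31 and 36 in FAEB and 49, 17, 47, 41 and 0 in VB. FAET repeat 4 alone held 46 of the 54 FAET UMIs, and the other 4 FAET libraries lay below every FAEB library and below 4 of the 5 VB libraries. Means were 3.37 ± 6.21 per 10,000 in FAET, 10.2 ± 3.72 in FAEB and 10.6 ± 7.04 in VB (SD, n = 5 each). The log2 fold change was −1.65 ± 1.07 for FAET over FAEB and −1.63 ± 1.08 for FAET over VB (SE, edgeR adjusted p = 0.476 and 0.523), with an exact permutation p of 0.0833 and 0.183. Without FAET repeat 4 these were −4.16 and −4.00, and *Cldn7* was still not called. The count of 0 in FAET repeats 2 and 5 allows up to 4.74 and 1.49 per 10,000.

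*Cldn3* had 0, 0, 0, 20 and 4 UMIs in FAET, against 12, 14, 33, 21 and 42 in FAEB and 18, 10, 1, 17 and 1 in VB. It averaged 1.65 ± 2.72 per 10,000 in FAET, 6.55 ± 3.37 in FAEB and 3.33 ± 3.31 in VB (SD, n = 5 each). FAET repeat 4, at 6.27, was the only FAET library above the lowest FAEB library, at 3.42. The exact permutation p between FAET and FAEB was 0.0167, the smallest that 5 against 5 allows, and the edgeR log2 fold change was −2.05 ± 1.14 (SE, adjusted p = 0.393). Over all genes with UMIs in every segment the median for FAET over FAEB was −0.40, and over the 6 junction genes −0.98. Without FAET repeat 1 the exact p between FAET and FAEB was 0.1, and without FAET repeat 4 the log2 fold change was −3.96, not called either.

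*Cldn15*, a pore-forming claudin, overlapped between all 3 segments. It had 7, 0, 5, 13 and 14 UMIs in FAET, 17, 27, 30, 9 and 5 in FAEB and 33, 1, 17, 23 and 0 in VB, and averaged 3.37 ± 2.68, 4.50 ± 2.20 and 4.05 ± 3.44 per 10,000 (SD, n = 5 each). *Epcam* averaged 17.4 ± 16.4, 13.1 ± 5.90 and 9.82 ± 7.94 per 10,000 in FAET, FAEB and VB, and its FAET libraries ran from 1.12 to 41.0. For *Epcam* 2 FAET libraries lay within the FAEB range, and the highest FAET value lay above all FAEB and VB libraries. For both genes the exact permutation p between any pair of epithelial segments was 0.433 or more.

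The share of *Cdh1* among the junction UMIs varied more in FAET than in FAEB or VB. This was noticed after the values were seen and is given as a description. *Cdh1* made up 65.0% of the 40 junction UMIs in FAET repeat 2 (95% exact interval 48.3 to 79.4%), 66.7% of the 30 in repeat 3 (47.2 to 82.7%) and 25% of the 92 in repeat 5 (16.6 to 35.1%). It made up 16.7% of 24 in repeat 1 (4.74 to 37.4%) and 8.46% of 260 in repeat 4 (5.38 to 12.5%). In FAEB its share was 7.20 to 26.7%, and in VB 0 to 10.8%. *Cldn7* made up 0%, 3.33% and 0% of the junction UMIs in FAET repeats 2, 3 and 5, 29.2% and 17.7% in repeats 1 and 4, 10.8 to 30.5% in the 5 FAEB libraries and 0 to 41.2% in the 5 VB libraries (21.1 to 41.2% without repeat 5). The FAET libraries thus fell apart among themselves. Repeats 1 and 4 lay inside the FAEB range for the shares of both genes, and repeat 5 for that of *Cdh1* only. Repeats 2 and 3 were also the shallowest libraries, and the part of depth in their make-up was not tested.

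**Figure D3:**
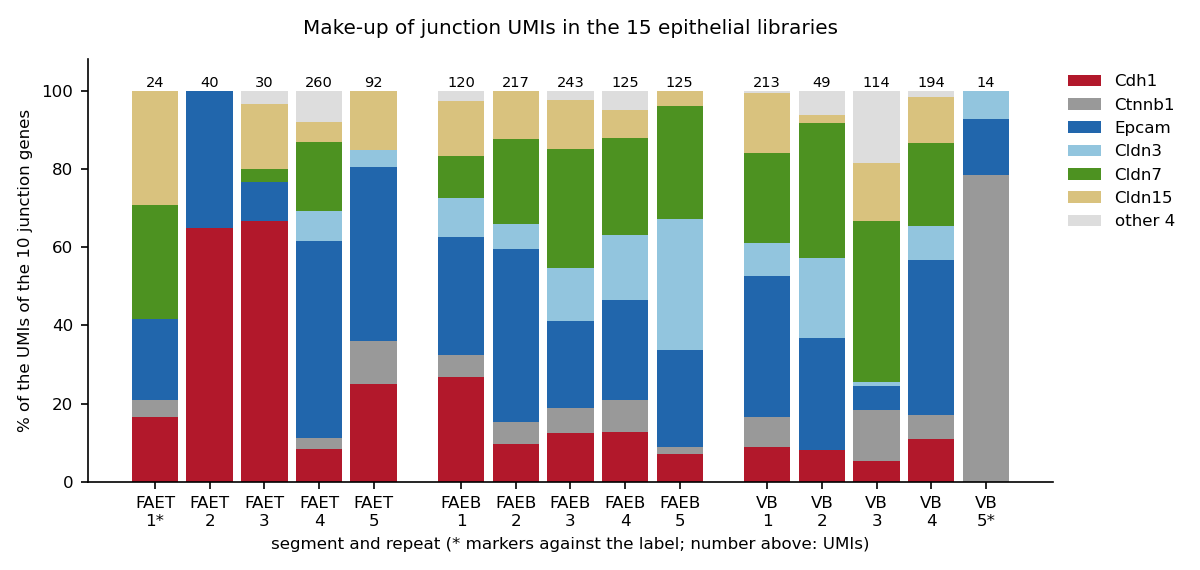
Make-up of the junction UMIs in the 15 epithelial libraries. Each bar is a library (x axis: segment and repeat, the star marks a library with immune markers), the y axis is the percent of the UMIs of the 10 junction genes, and the number above is their count. *Cdh1* takes 65.0% and 66.7% of the bar in FAET repeats 2 and 3 and at most 26.7% in FAEB and VB.

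*Ctnnb1* had 1, 0, 0, 7 and 10 UMIs in FAET, 7, 12, 16, 10 and 2 in FAEB, 16, 0, 15, 12 and 11 in VB, 7, 5, 20, 14 and 0 in ILFB and 18, 0, 13, 10 and 9 in ILFT. It was present in both compartments, and 11 of the 14 junction UMIs in the immune-marked VB repeat 5 were its own. No epithelial pair of segments had an exact permutation p under 0.333. Across the 15 epithelial libraries its fraction ran with that of *Cldn15* (Spearman's rho 0.80), not with that of *Cdh1* (rho −0.07), which is a description over libraries that share mice and differ in depth.

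*Cldn4* (chr5:134945119-134946934, on the other strand from its neighbour *Cldn3*) had 31 UMIs in all, of which FAET repeat 4 held 20. The other 4 FAET libraries had 0, 0, 1 and 0, FAEB had 3 in repeat 3 alone, VB had 1 each in repeats 2 and 4, ILFB had 4 and 1 in repeats 2 and 3, and ILFT had none. *Tjp1* (chr7:65296165-65527781) also had 31, of which 14 were in VB repeat 3, 7 in ILFT repeat 1 and 6 in FAEB repeat 4, and all 5 FAET libraries had 0. With whole segments at 0, fitted fold changes of these 2 genes depend on the prior count and are not given.

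*Ocln* (chr13:100496507-100552718) had 16 UMIs, 1 in FAET, 5 in FAEB and 10 in VB, and none in the 10 ILF libraries. *Cldn2* (chrX:139800828-139811386), which belongs to the crypt more than to the villus, had 4 UMIs in all, 1 in FAEB repeat 3 and 3 in ILFT repeat 4. Neither passed the filter, and at this depth no difference between segments could be detected for them.

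Within the ILF, the 4 libraries with epithelial markers had the highest summed fractions of the 10 genes, 24.8 to 60.7 per 10,000, against 0.548 to 9.83 in the other 6. For *Epcam* the ILFB mean was 4.57 ± 8.02 per 10,000 and the ILFT mean 6.88 ± 8.12, and *Cdh1* averaged 1.13 ± 1.12 and 2.42 ± 3.28 (SD, 5 libraries each, n = 5). edgeR called 0 of 8 junction genes (0.0904% of all genes), as did DESeq2 and limma-voom, which called 0 and 6 of all genes, and none of the 8 had an unadjusted edgeR p under 0.05. The log2 fold change (ILFB over ILFT) was −1.09 ± 1.11 for *Cdh1* and −1.04 ± 1.05 for *Epcam* (SE, edgeR adjusted p = 0.746 and 0.741), and the median was −1.06 over 6 junction genes and 0.49 over all 6524 genes with UMIs in every segment. In the 4 ILFB and 2 ILFT libraries that kept to their label, *Epcam* averaged 0.992 ± 0.813 and 0.124 ± 0.176, and *Cdh1* averaged 0.698 ± 0.635 and 0.124 ± 0.176 (SD), with the direction turned round for both. These 2 ILFT libraries held only 1 UMI of *Epcam* and 1 of *Cdh1*.

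Summed over the 10 genes, FAET had 5.37, 63.2, 25.6, 81.4 and 45.6 per 10,000, FAEB had 39.6, 53.0, 47.7, 41.7 and 35.4, and VB had 48.0, 40.5, 46.2, 43.0 and 1.86. ILFB had 2.83, 9.83, 8.19, 1.20 and 60.7, and ILFT had 57.2, 0.548, 24.8, 42.6 and 2.98. FAET was 44.3 ± 30.0, FAEB 43.5 ± 6.92 and VB 35.9 ± 19.3 (SD, n = 5 each). Without FAET repeat 1 and VB repeat 5 FAET was 54.0 ± 23.9 and VB 44.4 ± 3.32 (SD, n = 4 each). The sum ran with the share of the 18 epithelial markers (Spearman's rho 0.70 over 25 libraries) and against that of the 18 immune markers (rho −0.70), a description over libraries that share mice.

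**Figure D4:**
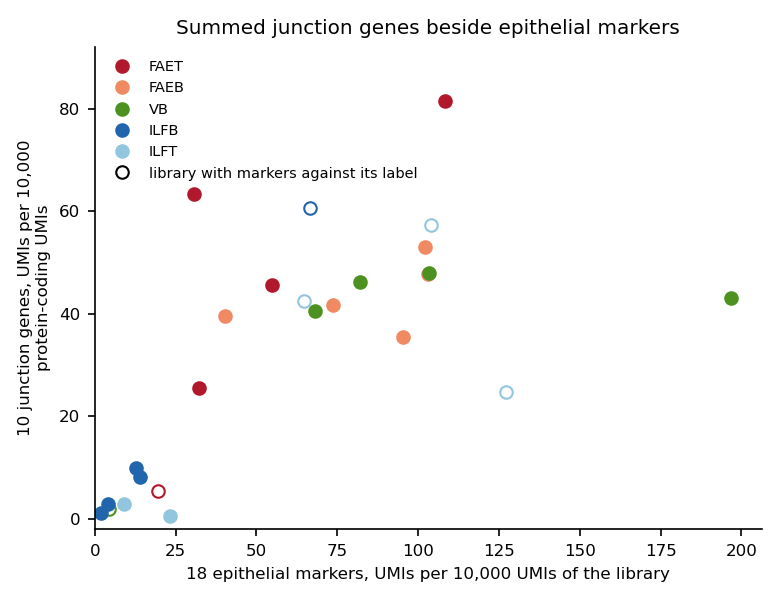
Summed fraction of the 10 junction genes (y axis, UMIs per 10,000 protein-coding UMIs) beside the summed share of 18 epithelial markers (x axis, UMIs per 10,000 UMIs of the library) in 25 libraries, coloured by segment. Open points are the libraries whose markers went against the label. ILFB repeat 5 and ILFT repeats 1 and 4 lie between 42.6 and 60.7, among the epithelial libraries. ILFT repeat 3, at 24.8, lies just below the lowest epithelial library whose markers fit the label, FAET repeat 3 at 25.6.

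Junction UMIs were also set against the 18 epithelial markers. The marker with most UMIs, 2430, was *Fabp2*, which the study lists among absorption genes that decrease toward the FAET. Its part in these ratios was not tested. There were 15.8, 60.6, 40.0, 33.9 and 34.3 junction UMIs per 100 epithelial marker UMIs in FAET, 32.4, 24.8, 23.5, 24.6 and 17.1 in FAEB and 18.8, 20.4, 25.7, 11.1 and 24.6 in VB. In FAET, 4 libraries lay above every FAEB and VB library, and repeat 1 lay below all of them but VB repeat 4. The ILFB libraries had 40.5, 35.2, 33.0, 41.0 and 39.7 and the ILFT libraries 26.4, 1.43, 13.3, 25.8 and 15.6, so that ILFB lay within the FAET range. Against keratins and *Vil1* alone the order within the epithelium differed. Per 100 of these UMIs FAET had 54.5, 2000, 158, 111 and 153 junction UMIs, FAEB 83.3, 99.5, 68.3, 74.0 and 49.2, and VB 84.2 to 467. FAET repeat 4 then lay below VB repeats 2, 3 and 5, and FAET repeat 2 and VB repeat 5 rested on 2 and 3 keratin and *Vil1* UMIs. *Cdh1* alone was set against the 18 epithelial markers again. Per 100 of their UMIs the FAET values were 2.63, 39.4, 26.7, 2.87 and 8.58. The FAEB values were 8.65, 2.40, 2.90, 3.14 and 1.23 and the VB values 1.67, 1.67, 1.35, 1.21 and 0. FAET repeats 2 and 3, the shallowest libraries, stood above all others, and FAET repeats 1, 4 and 5 lay within the FAEB range.

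In all 25 libraries edgeR called none of the genes of 6 further lists between epithelium and ILF, among 12 tested adherens junction partners, 6 desmosome genes, 14 other tight junction genes, 3 partners of Epcam, 6 regulators of E-cadherin transcription and 2 subunits of lymphocyte integrins. DESeq2 and limma-voom called none of them either, whereas edgeR with RLE size factors called *Vcl*, *Zeb1* and *Zeb2* of the 43 tested, all lower in the epithelium. With that scaling 4.32% of all genes were called, 3.84% as lower in the epithelium. At an unadjusted p under 0.05 edgeR had 4, 2, 2, 0, 2 and 0 genes of the lists in the same order. The median log2 fold change over those with UMIs in every segment was 0.86 for 10 adherens junction partners, 1.46 for 5 desmosome genes and 0.01 for 12 tight junction genes, against −0.29 for all genes.

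Values are given for the genes with most UMIs in each list. *Lima1*, which links cadherin complexes to actin, averaged 5.24 ± 3.11 per 10,000 in the epithelium and 4.28 ± 1.91 in the ILF, and *Cdh17*, the intestinal LI-cadherin, 5.33 ± 3.79 and 1.98 ± 2.70. The desmosomal *Dsg2* averaged 2.21 ± 2.55 and 2.28 ± 3.25, and desmoplakin (*Dsp*) 3.36 ± 8.19 and 0.729 ± 1.5. For *Dsp* the FAET libraries ran from 0 to 32.4, with a mean of 7.81 and a median of 0.991. Of the protease inhibitors that act with Epcam, *Spint2* averaged 8.997 ± 6.19 in the epithelium and 4.39 ± 4.95 in the ILF, and *Spint1* 3.71 ± 2.91 and 1.14 ± 2.02. Of the regulators, *Hnf4a* averaged 1.89 ± 2.05 and 1.73 ± 2.07, and *Klf4* 1.86 ± 2.19 and 1.23 ± 1.72 (SD, n = 15 and n = 10 throughout). The integrin chain *Itgb7* had 21 UMIs in FAET, all in 2 libraries, 4 in FAEB and 3 in VB, against 51 in ILFB and 1 in ILFT. In the libraries that kept to their label *Itgb7* had 7 in FAET, 4 in FAEB and 0 in VB, against 51 in ILFB and 1 in ILFT. The tight junction gene *F11r*, which encodes the adhesion molecule JAM-A, averaged 8.67 ± 6.35 in FAET, 6.19 ± 2.06 in FAEB, 3.25 ± 2.59 in VB, 4.18 ± 6.40 in ILFB and 4.63 ± 2.30 in ILFT (n = 5 per segment, SD). *Magi3*, a junctional scaffold, averaged 5.91 ± 3.02 in FAET, 2.33 ± 1.63 in FAEB, 0.777 ± 0.730 in VB, 1.31 ± 0.866 in ILFB and 2.2 ± 2.2 in ILFT. None of these was called.

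In the 19 libraries edgeR called 13 of the 41 genes of these lists that could be tested between epithelium and ILF, against 17.3% of all genes: 4 adherens junction partners, 2 desmosome genes, 1 tight junction gene, 1 Epcam partner, 4 regulators and 1 integrin gene. *Cdh17*, *Ctnnd1*, *Pvrl3*, *Dsp*, *Dsg2*, *Crb3*, *Spint2*, *Klf4* and *Hnf4a* were higher in the epithelium, and *Hnf4a* is also among the markers by which libraries were kept. *Zeb1*, *Zeb2*, *Vcl* and *Itgae* were lower. Of the 41 genes 9 were thus called higher and 4 lower. Of all 8738 genes tested 377 were called higher and 1139 lower. With a replicate block, 4 of the 41 were called, against 9.25% of all genes. They were *Dsp*, *Spint2*, *Zeb1* and *Zeb2*, all among these 13. *Zeb1*, the repressor of *Cdh1*, had 0 UMIs in 13 epithelial libraries and 0.838 ± 0.475 per 10,000 in 6 ILF libraries, and *Zeb2* had 0.0940 ± 0.202 and 3.26 ± 2.36 (SD, n = 13 and n = 6, edgeR adjusted p = 0.00210 and 7.87e-05). These genes were named after their values were seen. In all 25 libraries both had an edgeR adjusted p above 0.05, 0.0649 for *Zeb1* and 0.0744 for *Zeb2*. *Itgae*, the integrin chain by which intraepithelial lymphocytes bind E-cadherin, had 1 UMI in FAEB and none in FAET and VB in these libraries, against 31 in ILFB and 3 in ILFT.

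Among the genes whose fraction ran most like the sum of the 10 junction genes over the 25 libraries, of 2329 with at least 100 UMIs, were *Apob* (Spearman's rho 0.90), *Slc6a8*, *Guca2b* and *Crip1* (0.81 to 0.82). Among those most like *Cdh1* were *St3gal4* (rho 0.85), *Mgam*, *Gna11* and *Dstn* (0.77 to 0.78). Of the junction genes, *Epcam* ran closest to *Cdh1* (rho 0.76 over 25 libraries and 0.55 over the 15 epithelial), whereas *Cldn7* had a rho of −0.24 with *Cdh1* over the 15 epithelial libraries and *Cldn3* a rho of 0.58 with *Cldn7*. These values describe libraries that share mice and differ in depth and in epithelial content.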

How the data were processed

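RNA of 25 laser-captured libraries (5 segments, 5 repeats, 2 mice) was analysed from the UMI counts per gene that the authors deposited, which were made with bcl2fastq 2.15.0.4, zUMIs and STAR on GRCm38. Versions of zUMIs and STAR: not given in the sources used here. The labels name both SCRB-seq and a SMART-seq kit for these libraries. The deposited counts carry unique molecular identifiers and were not normalized. Segments and repeats came from the labels.

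The 9956 of 24089 genes that reached 3 UMIs in 3 or more libraries were fitted with edgeR 4.0.16 in R 4.3.3 (TMM scaling, quasi-likelihood test, segment and mouse as terms, all 25 libraries), with Benjamini-Hochberg adjustment over all tested genes and a threshold of 0.05. DESeq2 1.42.0, limma-voom (limma 3.58.1), RLE size factors, total UMIs only, no filter, a replicate block and leaving out repeats were alternatives. Leaving out the 25 libraries singly was added after seeing the data. Fractions were computed per 10,000 UMIs of 16201 protein-coding genes and compared by two-sided exact permutation within mice (Python 3.11.15), adjusted over 8612 genes. Tests were tried on simulated data. Gene symbols, coordinates and promoters came from the count table and GRCm38 annotation.

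The study describes each repeat as a set of all 5 segments. Whether libraries of a repeat ran together was checked on deviations from segment means: libraries of the same repeat had a mean correlation of 0.024 over 50 pairs (−0.31 to 0.32). The block therefore stayed an alternative, and the main tests leave this pairing out. No 2 libraries of a segment agreed within counting noise. The 10 genes and the other lists were chosen with earlier results of these data known. The text names all 10 genes, of each other list up to 4 called genes or else the 2 with most UMIs, and the 5 genes most correlated with the summed fraction and with *Cdh1*, of which 1 is not reported here. Named beyond this rule, after their values were seen, were genes called only without the 6 libraries.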

Additional observations from a re-analysis of the deposited data

Results flagged for a closer look

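Within a segment of 5 libraries, the highest or lowest fraction (UMIs per 10,000) of a junction gene, or of the sum of the 10, stood apart from the next in 15 of 43 groups, by a gap larger than Dixon's 95% critical value allows for 5 libraries. Chance gives about 1 in 20 groups where values are normal, which these skewed fractions with many zeros are not, so the counts cannot be set against each other. A group with 4 libraries at 0 passes by construction. ILFB repeat 5, whose markers were epithelial, was high for *Epcam* (18.9, next 1.75), *Cldn3* (13.5, next 0.877), *Cldn15* (17.2, next 1.23) and the sum of the 10 genes (60.7, next 9.83). VB repeat 5, whose markers were immune, was low for the sum (1.86, next 40.5).

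Single epithelial libraries were high for *Epcam* in FAEB repeat 2 (23.5, next 11.9) and for *Cldn7* in FAET repeat 4 (14.4, next 1.57). FAET repeat 4 was also high for *Cldn4* (6.27, next 0.853).

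The other cases rest on 14 UMIs or fewer. *Cldn4* stood apart in FAEB repeat 3 (0.589), VB repeat 2 (0.827) and ILFB repeat 2 (0.702). *Tjp1* stood apart in FAEB repeat 4 (2.00), VB repeat 3 (5.68), ILFB repeat 3 (0.182) and ILFT repeat 1 (1.27).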

How the results depend on the processing

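Without the 6 libraries that went against their label, junction genes called by edgeR numbered 5 between epithelium and ILF and 4 between any segments, against 0 and 0 in all 25, and the exact permutation test called 2 against 0. With a replicate block added they were again 5 and 4, and in all 25 libraries the replicate block called 0. Every other alternative run, leaving out each repeat or library included, also called 0 junction genes. Genes called on the other junction lists numbered 0 in all 25 libraries, 3 with RLE size factors, 1 with total UMIs only, 13 without the 6 libraries and 4 with the replicate block in addition. Leaving out single libraries gave 0 to 4, the most without VB repeat 5. The log2 ratio of junction to epithelial UMIs for FAEB over VB was 0.27 and became −0.69 with keratins and *Vil1* alone.

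Directions turned as follows (log2). *Cldn3*, epithelium over ILF, was 0.020, and became −0.20 with RLE, −0.24 with total UMIs, −0.21 with DESeq2 and −0.083 with the replicate block. It ran from −0.85 to 0.90 without a repeat and from −0.63 to 1.05 without a library. Its difference of fractions, −0.0814, became 4.20 without the 6 libraries and 3.20 with medians. Without ILFB repeat 5, *Epcam* became 2.10 and *Cldn15* 1.45, neither called. *Ctnnb1* ran from −0.12 to 0.51 without a repeat and −0.061 to 0.51 without a library, and *Cldn7* from −0.18 to 1.12 and −0.077 to 1.26. For ILFB over ILFT, *Cdh1* became 2.48 and *Epcam* 3.08 without the 6 libraries, and 2.18 and 3.25 with the replicate block too. The median of all genes was 1.88 and 1.84 in these 2 settings. The 2 remaining ILFT libraries held only 1 UMI of *Cdh1* and 1 of *Epcam*. Without a repeat *Cdh1* and *Epcam* ran from −1.64 to 0.29 and from −2.63 to 0.19, and without a library *Cdh1* ran from −1.42 to 0.10. Their differences of fractions became 0.573 and 0.868 without the 6 libraries, and 0.479 for *Cdh1* with medians. The cause was not tested.

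The median of all genes was −0.56 for FAET over VB (−0.29 with total UMIs), −0.48 for FAET over FAEB (−0.13) and 0.66 for ILFB over ILFT (0.41). Libraries varied widely (biological coefficient of variation 1.33), which limits what 5 libraries a segment can show.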
